A study of Mus musculus with 4 samples.

Results

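Serine synthesis, mitochondrial one-carbon and ATF4-dependent stress genes were examined in myeloid-derived suppressor cells (MDSCs) generated in vitro. The set held 10 of the 32285 genes in the files and was chosen by symbol, with earlier results of these data known. It comprised the serine synthesis enzymes Phgdh, Psat1 and Psph, the mitochondrial one-carbon enzymes Shmt2 and Mthfd2, and the stress genes Atf4, Asns, Ddit3, Trib3 and Chac1. All 10 had UMIs in all 4 libraries. A second identifier listed as Ddit3 (ENSMUSG00000116429) was at 0 in every library, and values for Ddit3 are those of ENSMUSG00000025408.

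Serine is made from the glycolytic intermediate 3-phosphoglycerate by phosphoglycerate dehydrogenase (Phgdh), phosphoserine aminotransferase (Psat1) and phosphoserine phosphatase (Psph), in that order. Mitochondrial serine hydroxymethyltransferase (Shmt2) then takes a one-carbon unit from serine, and Mthfd2 oxidises it for use in purine and thymidylate synthesis, so that proliferating cells draw heavily on this route. ATF4 is the transcription factor of the integrated stress response, in which kinases phosphorylate the initiation factor eIF2α and ATF4 is then translated more, so that ATF4 activity is set largely by translation of its mRNA. Known ATF4 targets include all of these serine and one-carbon enzymes, asparagine synthetase (Asns), the transcription factor CHOP (Ddit3), the pseudokinase Trib3 and the glutathione-degrading enzyme Chac1.

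Bone marrow of WT mice and of knockout mice labelled β2AR-/-, both on a C57BL/6 background and 6 to 10 weeks old, was cultured for 4 days. Recombinant mouse IL-6 and GM-CSF were present at 40 ng/mL each in all cultures, without or with 10 µM isoproterenol (ISO), a β-adrenergic receptor agonist. Live CD11b+ cells were sorted, tagged by sample, pooled and run as 3′ single-cell RNA-seq (10X Genomics), which gave 1 library each of WT, WT+ISO, β2AR-/- and β2AR-/-+ISO cells. With 1 library per group no test of ISO or genotype was possible. Intervals are 95% intervals that cover counting error only, and the spread between cultures or mice is unknown. How many mice each library drew on is not given in the sources used here. No cell type is named for the deletion in the knockout mice.

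After filtering, 9303 of 9525 barcodes were kept, 2039 to 2790 per library, with 19357824 to 29400468 UMIs per library and medians of 7484 to 10252 UMIs per cell. No barcode was shared between libraries, and 1 sample tag led 99.61 to 100% of the cells of each library. The leading tag held 89.77% of the tag UMIs in β2AR-/-+ISO, 95.39% in WT, 97.08% in WT+ISO and 97.97% in β2AR-/-. None of these values checks the genotype or the treatment of a library. The sorted myeloid markers Itgam (CD11b) and Ptprc (CD45) were at 269 to 384 CPM (UMIs of a gene divided by all UMIs of the library, times 1000000) in all 4 libraries, and the erythroid markers Hba-a1 and Hbb-bs were at 0. No check of the genotype labels by expression is given here. Every genotype direction below is between libraries as labelled. The treatment field of the labels gives isoproterenol for all 4 samples, and the titles and methods were followed for which libraries received it.

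The promoters of 3 members held the letters of a C/EBP-ATF response element, to which ATF4 binds as a dimer with a C/EBP protein. The core searched was TGATGNAA on both strands, in a window of 250 bases before to 50 bases after the start site of each RefSeq gene (build GRCm38.p6). All 10 members had a window, 11 windows in all because Psat1 had an alternative start. Windows of Asns, Trib3 and Chac1 held the core, against 3.97% of all 32851 windows. The palindromic cAMP response element TGACGTCA was in no member window and in 1.79% of all windows. These 3 stretches are shown because they alone among the member windows held the core. Each reads 5′ to 3′ on the strand of the gene, from 250 bases before the start site through the first 25 bases from it, with the core in capitals. They lie at chr6:7693185-7693459 (minus strand, Asns), chr2:152344036-152344310 (minus strand, Trib3) and chr2:119350992-119351266 (plus strand, Chac1).
Asns: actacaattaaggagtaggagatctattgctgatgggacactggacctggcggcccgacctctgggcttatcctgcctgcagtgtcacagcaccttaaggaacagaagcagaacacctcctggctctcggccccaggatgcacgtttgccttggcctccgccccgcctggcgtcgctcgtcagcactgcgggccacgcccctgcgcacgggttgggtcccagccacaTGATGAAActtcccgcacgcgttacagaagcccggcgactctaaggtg
Trib3: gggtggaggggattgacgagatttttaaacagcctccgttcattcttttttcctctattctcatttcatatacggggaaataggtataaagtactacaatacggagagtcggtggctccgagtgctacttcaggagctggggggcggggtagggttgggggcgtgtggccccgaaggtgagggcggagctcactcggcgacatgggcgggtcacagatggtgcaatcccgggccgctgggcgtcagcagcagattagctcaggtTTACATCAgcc
Chac1: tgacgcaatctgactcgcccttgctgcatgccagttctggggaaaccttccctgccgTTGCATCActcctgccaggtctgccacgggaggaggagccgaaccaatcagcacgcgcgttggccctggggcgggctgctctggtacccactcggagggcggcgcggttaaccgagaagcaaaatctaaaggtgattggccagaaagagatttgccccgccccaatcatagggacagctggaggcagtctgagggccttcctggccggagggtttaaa
Counted from 0 at the start site, the core spanned -23 to -16 in Asns, 14 to 21 in Trib3 and -193 to -186 in Chac1. It lay on the strand of the gene in Asns and on the opposite strand in Trib3 and Chac1. A match of letters is a description of the sequence, not evidence of binding, and the absence of the letters from a window says nothing of the factor.

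Among the serine synthesis enzymes, Phgdh (chromosome 3, 98313171 to 98339969), which catalyses the first step, was at 152.7 CPM in WT (interval 148 to 158), 179.9 in WT+ISO (175 to 185), 143.1 in the library labelled β2AR-/- (139 to 148) and 129.9 in that labelled β2AR-/-+ISO (125 to 135). WT+ISO was thus the highest library and the labelled β2AR-/-+ISO library the lowest, and no intervals overlapped. The share of all genes whose intervals did not overlap between libraries was not measured, for this gene or for those that follow. Psat1 (chromosome 19, 15905123 to 15925059), the enzyme of the second step, was at 56.5, 58.5, 59.0 and 58.6 CPM in the same order. Its 4 intervals overlapped throughout. Psph (chromosome 5, 129765558 to 129787443), the last enzyme, was at 44.6, 44.8, 44.5 and 37.5 CPM, and only the labelled β2AR-/-+ISO library, with an interval of 34.8 to 40.3, lay apart from the rest.

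Of the mitochondrial one-carbon enzymes, Shmt2 (chromosome 10, 127517123 to 127522444) was at 28.9 CPM in WT, 27.6 in WT+ISO, 34.8 in the library labelled β2AR-/- and 28.1 in that labelled β2AR-/-+ISO. The labelled β2AR-/- library, with an interval of 32.7 to 37.1, was above the other three. Mthfd2 (chromosome 6, 83305704 to 83326011) was at 99.9 CPM in WT (interval 96.0 to 104), 83.9 in WT+ISO (80.6 to 87.3), 121.7 in β2AR-/- (118 to 126) and 112.7 in β2AR-/-+ISO (108 to 118). Its lowest library was therefore WT+ISO, and both labelled β2AR-/- libraries were above both WT libraries.

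Atf4 mRNA itself (chromosome 15, 80255184 to 80257545) was nearly level, at 157.3 CPM in WT, 153.2 in WT+ISO, 170.3 in the library labelled β2AR-/- and 155.0 in that labelled β2AR-/-+ISO. The intervals of WT, WT+ISO and β2AR-/-+ISO overlapped, and β2AR-/- (166 to 175) was above them. Ddit3 (chromosome 10, 127290793 to 127296291), which encodes the pro-apoptotic factor CHOP, was at 13.4, 13.5, 15.4 and 16.0 CPM, and all 4 of its intervals overlapped.

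The other stress targets were lowest in WT+ISO and higher in both libraries labelled β2AR-/-. Asns (chromosome 6, 7675165 to 7693209), which makes asparagine from aspartate and glutamine, was at 50.3 CPM in WT (interval 47.5 to 53.2), 35.99 in WT+ISO (33.9 to 38.2), 79.6 in β2AR-/- (76.4 to 82.9) and 68.6 in β2AR-/-+ISO (64.9 to 72.3), and no intervals overlapped. Trib3 (chromosome 2, 152337425 to 152344060), a pseudokinase that restrains AKT and ATF4, was at 14.4 CPM in WT (12.9 to 15.9), 10.1 in WT+ISO (8.99 to 11.3), 21.5 in β2AR-/- (19.8 to 23.3) and 22.6 in β2AR-/-+ISO (20.5 to 24.8). Chac1 (chromosome 2, 119351242 to 119354326) was at 6.40 CPM in WT (5.43 to 7.48), 4.83 in WT+ISO (4.07 to 5.69), 8.05 in β2AR-/- (7.05 to 9.17) and 9.04 in β2AR-/-+ISO (7.75 to 10.5). For Trib3 the WT libraries lay below both labelled β2AR-/- libraries, which overlapped each other, while for Chac1 the WT interval overlapped that of β2AR-/- and that of WT+ISO. Chac1 rested on 142 to 230 UMIs per library, of which the 10 cells with most Chac1 UMIs held 15.2 to 20.5%. Markers of other cells and depth moved with these genes. The 6 macrophage markers summed to 152 CPM in WT, 61.5 in WT+ISO, 294 in β2AR-/- and 221 in β2AR-/-+ISO, and the 6 dendritic cell markers to 840, 282, 971 and 757, all of them above 0, while WT+ISO had the highest median of UMIs per cell (10252). The 3 eosinophil markers summed to 51.5 CPM in WT and 73.6 in β2AR-/-, but to 1.16 in WT+ISO, where Prg3 was at 0, and 1.14 in β2AR-/-+ISO. These markers were enriched in cluster 5 alone of the clusters described below, and their part in the values within cluster 5 was not tested. The order of the 4 libraries in Asns over all cells was also measured within each of clusters 3, 4 and 5. In clusters 3 and 5 the intervals of the 2 labelled β2AR-/- libraries overlapped, so their order was not resolved there. In the other clusters the order was another, on 56 UMIs or fewer per library. The part of cell make-up in these values was not tested.

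**Figure D1:**
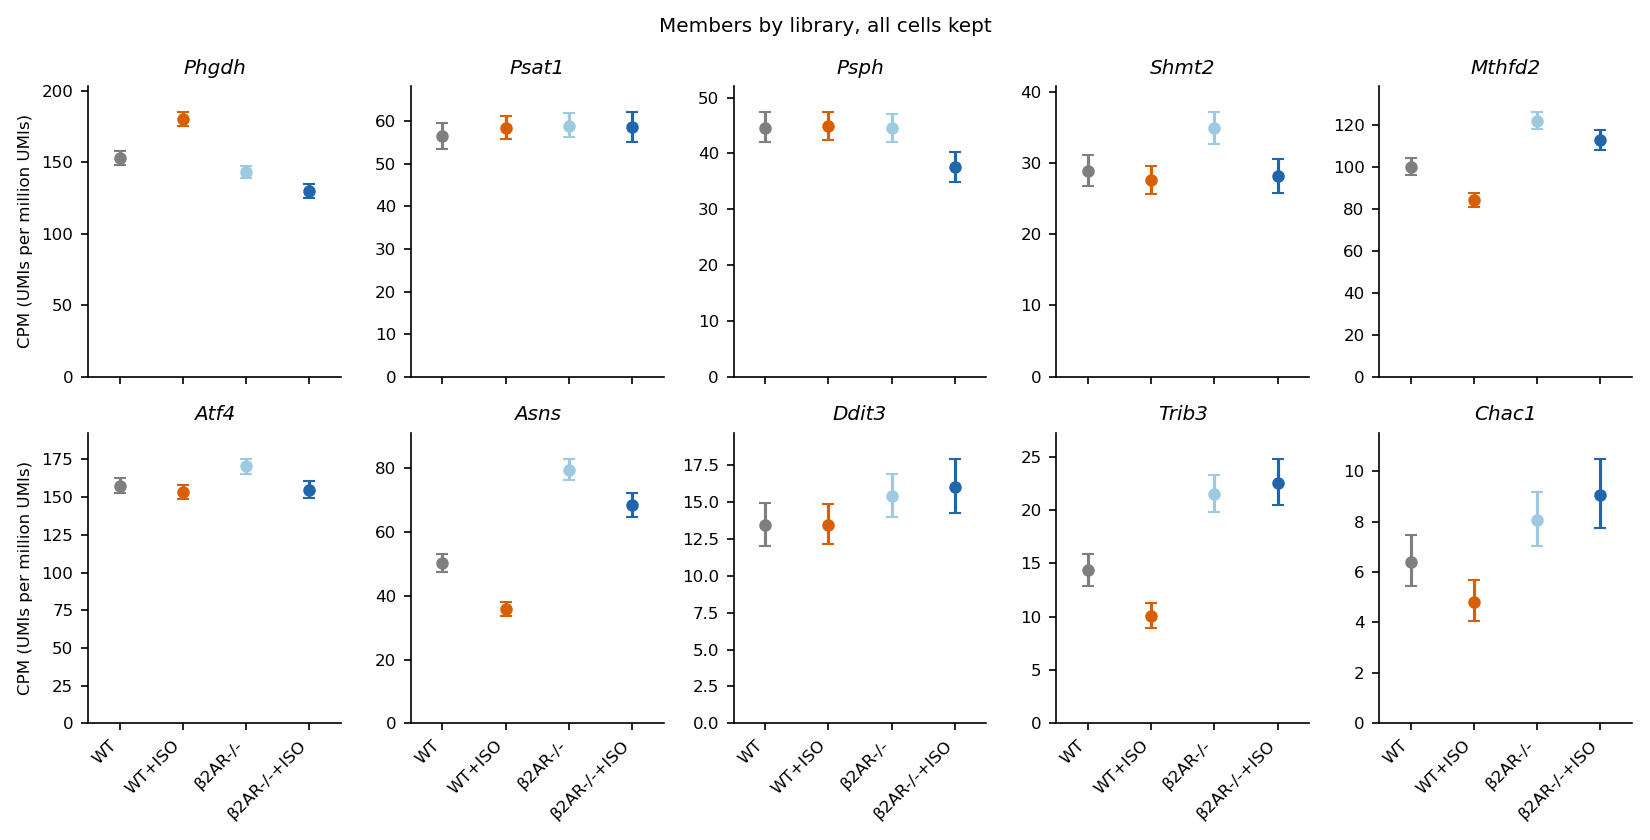
Level of each of the 10 genes in the 4 libraries, in CPM (linear axes from 0). Points are library values over all cells kept and bars are exact Poisson 95% intervals (counting error only). Asns, Trib3, Chac1 and Mthfd2 were lowest in WT+ISO, while Atf4 lay between 153.2 and 170.3 CPM in all 4 libraries.

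To ask which cells held these transcripts, cells were grouped into 7 clusters with the 10 members and the context genes listed below left out of the clustering. Cluster 1 (Retnlg, Mmp9, Ly6g) was mature neutrophil-like, cluster 2 (Ltf, Camp) specific-granule neutrophil-like, cluster 3 (Mrc1, C1qb) macrophage-like, cluster 4 (Mpo, Elane, Prtn3) azurophil-granule neutrophil progenitor-like and cluster 6 (Ccr7, Ccl22, Fscn1) dendritic-cell-like. Cluster 0, led by Gpnmb and Atp6v0d2 and with a median of 3235 UMIs per cell, and cluster 5, led by Kcnq5 and Serpina3g and with a median of 20804, were left without a name. No doublet caller was run, and the part of doublets in the deep cluster 5 was not tested.

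The serine and one-carbon enzymes were concentrated in clusters 4 and 5. Pooled over libraries, Phgdh was at 345 CPM in cluster 5, 274 in cluster 4 and 58.5 in the macrophage-like cluster 3, against 2.59 to 13.7 CPM in the other 4 clusters. Clusters 4 and 5 together held 87.4% of its UMIs, with 26% of the cells and 44.5% of the UMIs of all genes. Psat1 was at 128 CPM in cluster 5, 70.0 in cluster 4 and 52.1 in cluster 3, and Shmt2 at 68.0, 42.9 and 20.1 CPM. Both genes were highest in cluster 5. For Psph the order of the first 2 was turned, with 89.5 CPM in cluster 4 and 69.0 in cluster 5, while cluster 3 had 17.7. Mthfd2 was at 167 CPM in cluster 5, 149 in cluster 4 and, in the dendritic-cell-like cluster 6, 144 with an interval of 125 to 165 that overlapped both. The mature neutrophil-like cluster 1 was the lowest for all 5 enzymes, with Shmt2 at 3 UMIs in all.

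The stress genes were less uniform across clusters. Atf4 was found in every cluster, from 71.6 CPM in cluster 1 to 231 in cluster 5, and Asns was as high in cluster 4 (92.8 CPM, interval 89.2 to 96.4) as in cluster 5 (93.8, 89.3 to 98.4). Trib3 was highest in cluster 5 at 30.3 CPM, and clusters 3 (16.0) and 4 (14.4) did not differ beyond their intervals. Chac1 was at 11.8 CPM in cluster 4 and 10.6 in cluster 5, with overlapping intervals, and at 4.96 in cluster 3. Ddit3 departed from the other 9 members. Its highest level was 27.4 CPM (23.9 to 31.3) in the low-UMI cluster 0, and clusters 1 to 5 lay between 12.2 and 15.3 CPM. The 12 proliferation genes fixed as a context list, among them Mki67, Top2a and Cdk1, summed to 2345 CPM in cluster 5, 2296 in cluster 4 and 927 in cluster 3. They summed to 50.9 to 522 CPM in the other clusters. Each of the 9 members other than Ddit3 also had its highest level in cluster 4 or 5. The likeness was partial. The interval of Trib3 in cluster 4 overlapped that in cluster 1 (13.1 CPM, 10.8 to 15.6), and Mthfd2 in cluster 6 overlapped cluster 4.

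**Figure D2:**
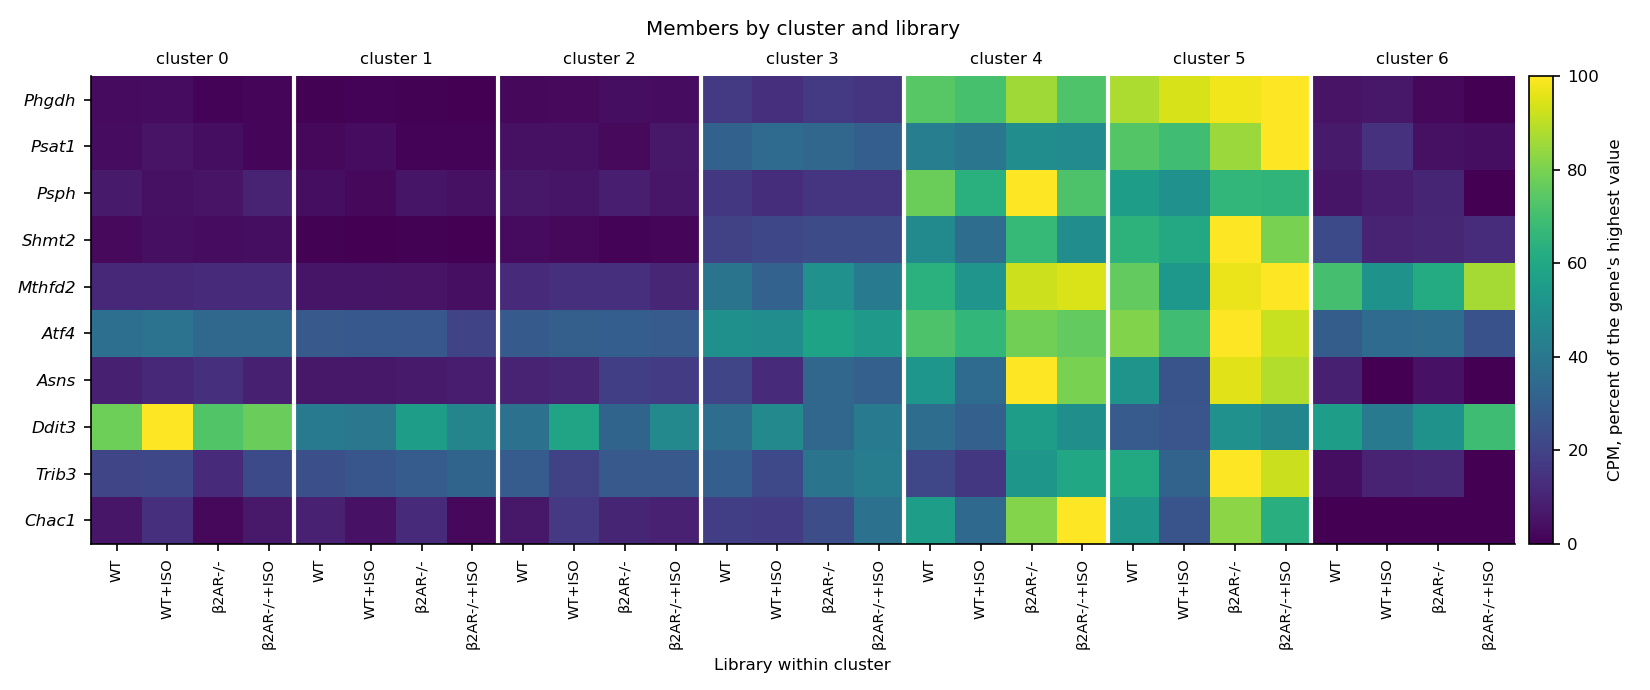
Level of each gene in each cluster and library as percent of that gene's highest value (colour scale from 0 to 100). Clusters 4 and 5 hold the highest values for all genes but Ddit3, which is highest in cluster 0, and within clusters 4 and 5 the WT+ISO column is the lowest for Asns, Trib3, Chac1 and Mthfd2. Cluster 6 has 102 cells in all, 15 in WT+ISO and 15 in β2AR-/-+ISO, so its values are coarse.

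The make-up of the libraries differed in these clusters. Cluster 4 made up 16.8% of cells in WT, 26.4% in WT+ISO, 12.6% in the library labelled β2AR-/- and 13.2% in that labelled β2AR-/-+ISO, and cluster 5 made up 8.96, 11, 8.28 and 7.36%. Other clusters differed too. In the same order, cluster 3 made up 19, 11.9, 28.5 and 24.2% and cluster 0 made up 27.6, 16.5, 19.6 and 19.9%. Levels over all cells therefore mixed cell make-up with levels within cells. Each comparison is given over all cells and again at fixed weights. There every cluster was weighted, in both libraries, by the mean over the 4 libraries of its share of cells. A gene with at least 100 UMIs over the 2 libraries was counted as higher or lower where the ratio reached 1.5-fold, which is 0.585 on the log2 scale. The share of all such genes past that fold is given as background. No such share was computed within clusters. The 4 comparisons draw on 4 libraries, each library enters 2 of them, and they are not independent.

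ISO in WT cells was compared first. No member reached 1.5-fold in WT+ISO over WT, against 1.00% of 10771 genes higher and 5.50% lower, and none did at fixed weights, against 1.48% higher and 2.59% lower. The largest differences were lower levels of stress targets and Mthfd2. The log2 ratio was -0.51 for Trib3 (-0.73 to -0.28), -0.48 for Asns (-0.60 to -0.36) and -0.25 for Mthfd2 (-0.33 to -0.17). At fixed weights they were -0.32, -0.50 and -0.28, and with every cell weighing the same -0.18, -0.25 and -0.05, all below 0. Chac1 had a log2 ratio of -0.41 (-0.74 to -0.07), which was 0.04 when every cell weighed the same. Atf4 was at -0.04 and Ddit3 at 0.01, both with intervals that held 0. Phgdh alone had an interval above 0, at 0.24 (0.17 to 0.30), and at fixed weights its log2 ratio was -0.03 (-0.09 to 0.04). Psph went from 0.01 over all cells to -0.29 (-0.42 to -0.15) at fixed weights. For both genes the value was lower at fixed weights. Those weights change the shares of all clusters at once, and the part of cluster 4 or of any other cluster was not tested.

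Within clusters 3, 4 and 5, where the members had most UMIs, Asns was lower in WT+ISO than in WT each time. It was at 32.9 CPM in WT and 18.9 in WT+ISO in cluster 3, 82.6 and 55.1 in cluster 4, and 81.2 and 40.5 in cluster 5, log2 ratios of -0.80, -0.59 and -1.001. Trib3 in cluster 5 was at 28.0 CPM in WT and 14.6 in WT+ISO (log2 ratio -0.94, -1.35 to -0.53), while in clusters 3 and 4 the intervals of its log2 ratios, -0.44 and -0.41, held 0. Mthfd2 was at -0.29, -0.29 and -0.51 in clusters 3, 4 and 5, each with an interval below 0. Chac1 was at 11.2 and 6.88 CPM in cluster 4 (-0.70, -1.17 to -0.22) and 10.6 and 5.22 CPM in cluster 5 (-1.03, -1.73 to -0.34). Atf4, level over all cells, was at -0.12 (-0.22 to -0.02) in cluster 4 and -0.22 (-0.34 to -0.10) in cluster 5. In the other clusters its intervals held 0. Outside these clusters a difference in Asns was not detectable at this depth. In the low-UMI cluster 0 Asns had 34 UMIs in WT and 33 in WT+ISO, a log2 ratio of 0.43 (-0.31 to 1.16), and in cluster 2 it was at 0.08 (-0.70 to 0.88). Of the serine enzymes, Phgdh was at -0.29, -0.06 and 0.10 in clusters 3, 4 and 5, and Shmt2 was lower in cluster 4 alone of the 3 beyond its interval (-0.43, -0.66 to -0.21).

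ISO in the cells labelled β2AR-/- was compared next. No member reached 1.5-fold, against 0.587% of 10734 genes higher and 0.997% lower, and none did at fixed weights, against 1.02% higher and 0.876% lower. Trib3 was at a log2 ratio of 0.07 (-0.11 to 0.25) and Chac1 at 0.17 (-0.13 to 0.46), and Asns was at -0.22 (-0.31 to -0.12). Ddit3 was at 0.06 (-0.16 to 0.27). With every cell weighing the same, Asns was at -0.26 here and -0.25 in WT, and Chac1 at 0.10 here and 0.04 in WT. The enzymes were lower with ISO in these libraries, with log2 ratios of -0.31 for Shmt2 (-0.46 to -0.16), -0.25 for Psph (-0.38 to -0.11), -0.14 for Phgdh (-0.21 to -0.07) and -0.11 for Mthfd2 (-0.19 to -0.03). Psat1 stayed level at -0.01 (-0.12 to 0.10). Atf4 was at -0.14 (-0.20 to -0.07). At fixed weights Shmt2, Psph, Phgdh and Atf4 were at -0.29, -0.24, -0.13 and -0.11, close to their values over all cells, and Mthfd2 was at -0.06 with an interval that held 0. Within clusters 3, 4 and 5 Asns was at -0.11, -0.32 and -0.11, with an interval below 0 in cluster 4 alone (-0.48 to -0.16). Mthfd2 was at -0.27 (-0.41 to -0.13), 0.03 and 0.04. In cluster 4 Shmt2 was at -0.45 (-0.72 to -0.19) and Psph at -0.47 (-0.66 to -0.28), beside -0.43 and -0.29 in WT. Whether ISO acted differently in the 2 genotypes was not tested, since each ratio comes from 1 pair of libraries.

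**Figure D3:**
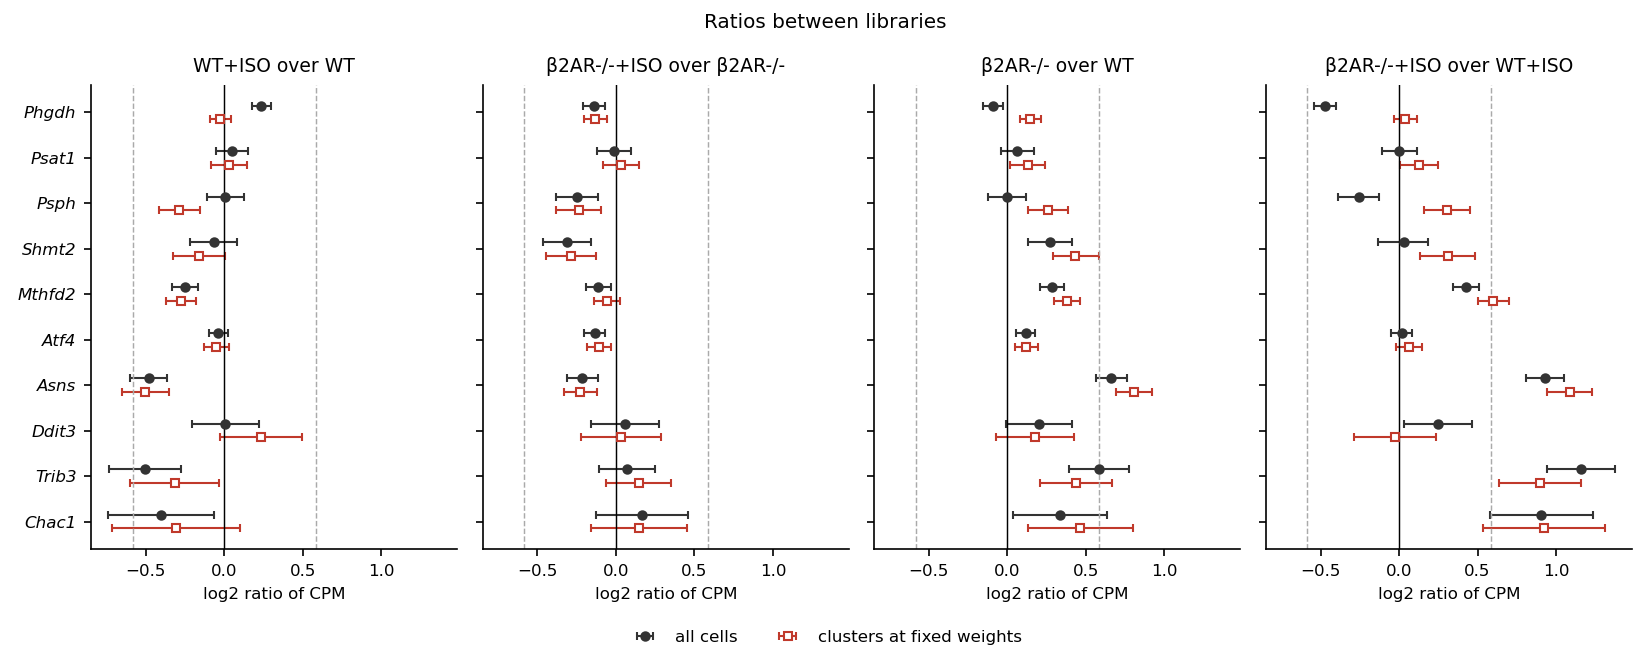
Log2 ratios of CPM between libraries for the 4 comparisons. Filled circles are over all cells, open squares are with the clusters at fixed weights, bars are 95% intervals (counting error only) and dashed lines mark 1.5-fold. Asns, Trib3 and Chac1 stand right of the dashed line in β2AR-/-+ISO over WT+ISO, and for Phgdh, Psph and Ddit3 in that comparison the square lies on the other side of 0 from the circle.

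Without ISO, the library labelled β2AR-/- had higher levels of Asns, Trib3 and Chac1 than WT. Asns was 1.58-fold higher (log2 ratio 0.66, 0.56 to 0.76) and was the 1 member of 10 past 1.5-fold, against 2.88% of 10861 genes higher and 1.52% lower. Trib3 lay just under the threshold, at a log2 ratio of 0.584 (0.39 to 0.78). Asns was again the 1 member past it at fixed weights (1.75-fold), against 1.66% of genes higher and 1.14% lower. Chac1 was at 0.33 (0.03 to 0.64), Mthfd2 at 0.29 (0.21 to 0.36) and Shmt2 at 0.27 (0.13 to 0.41). Atf4 was at 0.12 (0.05 to 0.18), and Psat1 and Psph were at 0.06 and -0.003 with intervals that held 0. The median over the 10 members was 0.23, beside -0.01 over all genes counted. Within clusters 4 and 5 the ratios were larger. Asns was at 157 CPM in β2AR-/- and 82.6 in WT in cluster 4 and at 150 and 81.2 in cluster 5, log2 ratios of 0.93 and 0.89. Trib3 in cluster 4 was at 24.4 and 9.82 CPM (1.31, 0.88 to 1.76). Atf4 was at 0.218 (0.105 to 0.332), 0.127 (0.015 to 0.240) and 0.304 (0.181 to 0.427) in clusters 3, 4 and 5, and its intervals held 0 in the other clusters. Ddit3, whose interval over all cells held 0, was at 0.64 (0.21 to 1.08) in cluster 4 and 0.81 (0.25 to 1.39) in cluster 5, on 81 and 43 UMIs in WT. Phgdh was at -0.09 (-0.16 to -0.03) over all cells and at 0.14 (0.08 to 0.21) at fixed weights.

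With ISO, the difference between the library labelled β2AR-/-+ISO and WT+ISO was, over all cells, the largest of the 4 comparisons for Asns, Trib3 and Chac1. Trib3 was 2.23-fold higher (log2 ratio 1.16, 0.94 to 1.38), Asns 1.9-fold higher (0.93, 0.81 to 1.05) and Chac1 1.87-fold higher (0.90, 0.58 to 1.23). These 3 of 10 members were past 1.5-fold, against 9.08% of 10645 genes higher, and none was lower, against 6.83%. With every cell weighing the same, Chac1 was at 0.30 and no longer past 1.5-fold, and Trib3 at 0.69 and Asns at 0.64, beside 0.66 for Asns without ISO, still were, while Mthfd2 was at 0.20. Mthfd2 was at 0.43 (0.34 to 0.51) over all cells and, at fixed weights, at 0.60, so that 4 members were past the fold there, against 4.04% of genes higher and 4.00% lower. The median over the 10 members was 0.14 over all cells and 0.31 at fixed weights, beside -0.02 and -0.04 over all genes counted.

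Transcript levels of the regulator over all cells were alike in this comparison, with a log2 ratio of 0.02 (-0.05 to 0.08) for Atf4. Phgdh was 0.722 of its WT+ISO level over all cells (log2 ratio -0.47, -0.54 to -0.40) and 1.03 of it at fixed weights (0.04, -0.03 to 0.11). Psph went from -0.26 to 0.31 (0.16 to 0.45), and Ddit3 from 0.25 (0.03 to 0.47) to -0.03. Thus the lower Phgdh and Psph over all cells were not found at fixed weights. Cluster 4 made up 13.2% of cells in β2AR-/-+ISO against 26.4% in WT+ISO, and cluster 3 24.2% against 11.9%. The part of any single cluster was not tested.

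Within cluster 5 the library labelled β2AR-/-+ISO had 139 CPM of Asns and WT+ISO 40.5 (log2 ratio 1.78, 1.54 to 2.02), 42.4 and 14.6 CPM of Trib3 (1.53, 1.12 to 1.95), 12.7 and 5.22 CPM of Chac1 (1.29, 0.55 to 2.03) and 215 and 115 CPM of Mthfd2 (0.90, 0.74 to 1.06). In cluster 4 the log2 ratios were 1.19 for Asns, 1.90 for Trib3, 1.54 for Chac1 and 0.85 for Mthfd2, and in the macrophage-like cluster 3 they were 1.35, 0.94, 1.06 and 0.41. All of these intervals lay above 0, but the share of all genes with such intervals within these clusters was not measured. Atf4 was at 0.40 (0.26 to 0.54) in cluster 5 and 0.20 (0.08 to 0.31) in cluster 4, smaller than Asns, Trib3, Chac1 and Mthfd2 there. In cluster 1 Atf4 was at -0.42 (-0.745 to -0.10), on 126 and 229 UMIs, and in clusters 0, 2 and 3 its intervals held 0. Ddit3 was at 0.80 (0.19 to 1.41) in cluster 5 and 0.69 (0.24 to 1.14) in cluster 4 but at -0.21 and -0.37 in clusters 3 and 0, with intervals that held 0. In cluster 0 Asns, on 20 and 33 UMIs, was at -0.41 (-1.29 to 0.43), in cluster 1 at 0.29 (-0.52 to 1.09) and in the specific-granule neutrophil-like cluster 2, on 46 and 35 UMIs, at 0.74 (0.07 to 1.41).

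**Figure D4:**
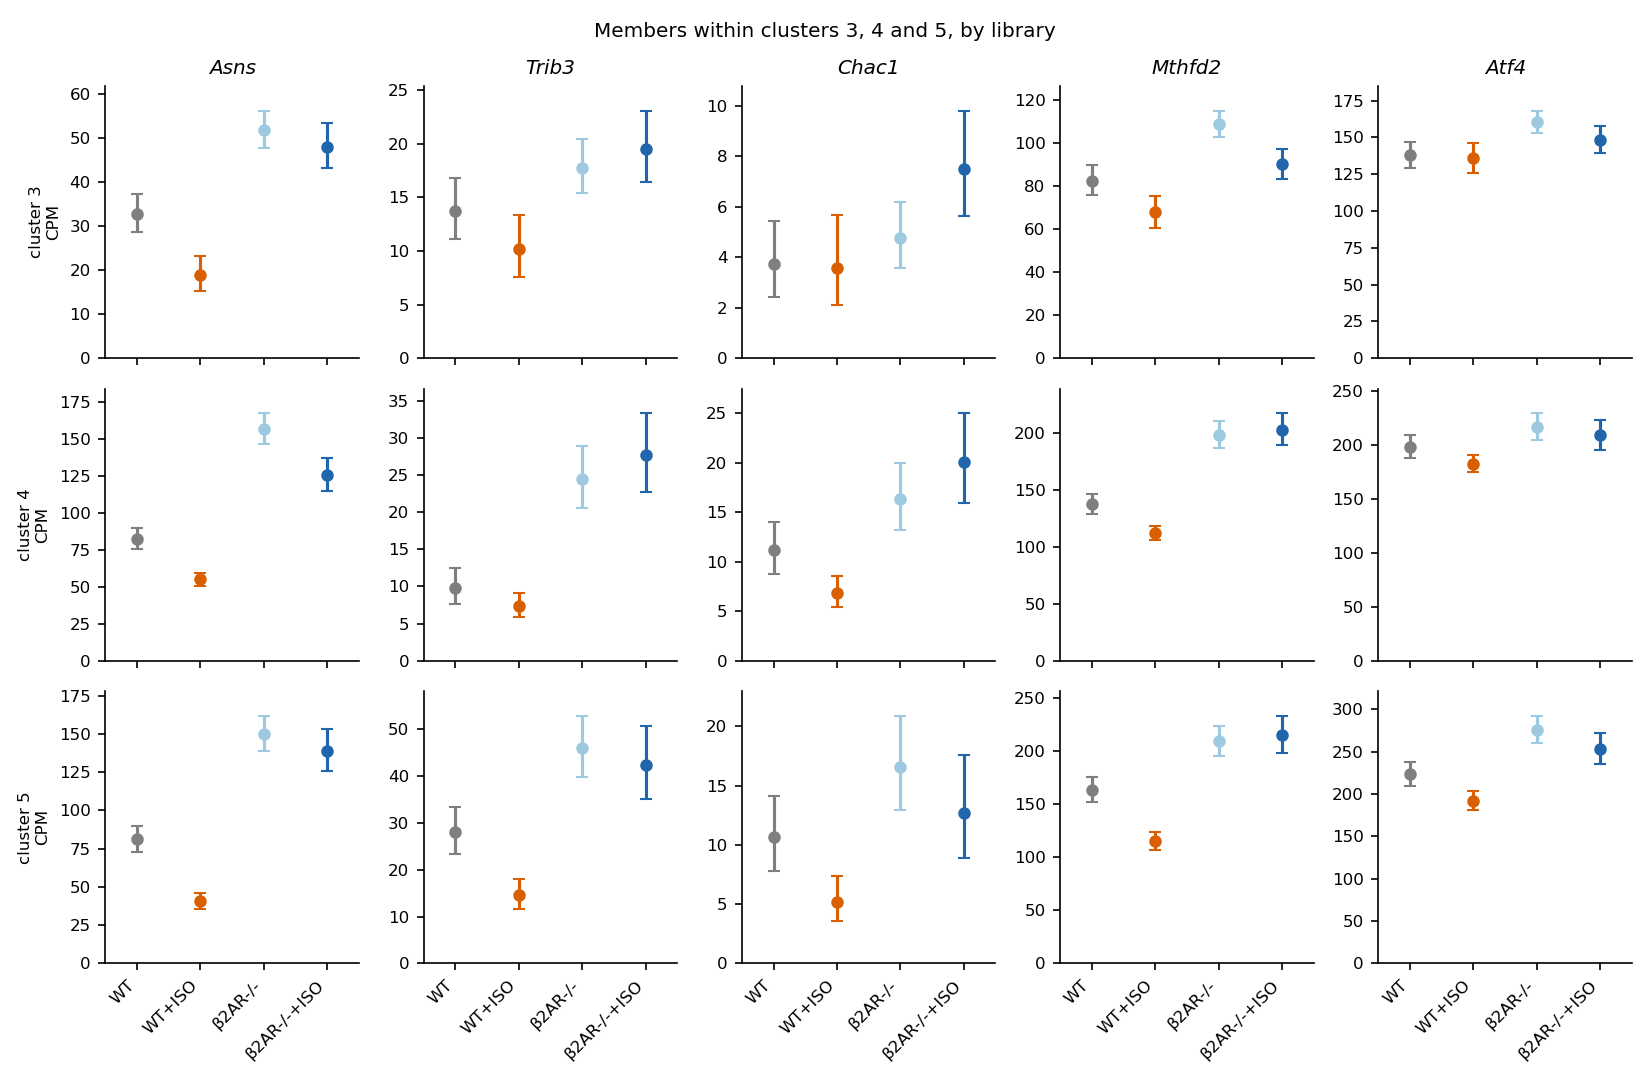
Levels in CPM (linear axes from 0) of Asns, Trib3, Chac1, Mthfd2 and Atf4 within the macrophage-like cluster 3, the progenitor-like cluster 4 and the unnamed cluster 5, by library, with exact Poisson 95% intervals (counting error only). In clusters 4 and 5 WT+ISO was the lowest library for all 5 genes, and the 2 libraries labelled β2AR-/- were the highest.

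Other known ATF4 targets, a list of 25 genes of which 21 had at least 100 UMIs in each comparison, were counted in the same way. In WT+ISO over WT 6 of the 21 were lower by at least 1.5-fold, against 5.50% of all genes, and none was higher. The median log2 ratio was -0.27, and at fixed weights 3 were lower, against 2.59% of all genes. In β2AR-/-+ISO over WT+ISO 11 were higher, against 9.08% of all genes, and none lower. The median was 0.59, and at fixed weights 9 were higher, against 4.04% of all genes. The 4 genes with the largest ratios for ISO in WT are given by library. Cth, which makes cysteine from cystathionine, was at 3.03 CPM in WT, 1.74 in WT+ISO, 10.8 in the library labelled β2AR-/- and 6.82 in that labelled β2AR-/-+ISO. Stc2, a secreted glycoprotein of the stress response, was at 4.43, 2.25, 13.5 and 10.8 CPM. The mTORC1 restrainers Sesn2 and Ddit4 were at 18, 10.9, 21.9 and 23.0 CPM and at 10.2, 6.33, 12.99 and 13.6 CPM. Each of these 4 genes was lowest in WT+ISO. They were picked by the size of their WT+ISO over WT ratio, so a large difference there follows from the choice. Slc7a11, the cystine carrier, went against them with 169, 203, 143 and 193 CPM, and it is also a target of Nrf2.

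As a list, genes upstream of ATF4 translation were close to level, with median log2 ratios between -0.057 and 0.015 over all cells. Of 8 eIF2α kinases, phosphatases and partners, 1 was past 1.5-fold in any comparison over all cells and none at fixed weights. It was Eif2s1, the eIF2α subunit itself, at a log2 ratio of -0.62 in β2AR-/-+ISO over WT+ISO, where 6.83% of all genes were lower. At fixed weights Eif2s1 was still lower there, at -0.51 (-0.61 to -0.40). In β2AR-/- over WT without ISO it was at -0.46 and, at fixed weights, at -0.34 (-0.435 to -0.252). The kinases Eif2ak4 (GCN2) and Eif2ak3 (PERK) were at -0.31 and -0.13 in WT+ISO over WT, and at -0.13 and -0.21 at fixed weights, with intervals that held 0 for both there. Phosphorylation of eIF2α is not measured by RNA counts. None of 13 genes for tRNA synthetases and tRNA export of the ATF4 programme was past 1.5-fold in any comparison. The shares of all genes were 0.587 to 9.08% higher and 0.997 to 6.83% lower. The medians of these 13 were -0.12 in WT+ISO over WT and 0.18 in β2AR-/-+ISO over WT+ISO.

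Most genes of the other arms of the unfolded protein response, among them the chaperone Hspa5, did not follow Asns and Trib3. In β2AR-/-+ISO over WT+ISO 6 of 15 genes were lower by at least 1.5-fold, against 6.83% of all genes, and none higher. At fixed weights 6 were lower too, against 4.00%, and none higher. They were Hspa5, Sdf2l1, Calr, Creld2, Manf and Hyou1. Hspa5 (BiP), the main chaperone of the endoplasmic reticulum, was at 417 CPM in WT, 440 in WT+ISO, 280 in the library labelled β2AR-/- and 254 in that labelled β2AR-/-+ISO. In WT+ISO over WT none of the 15 was past 1.5-fold, against 1.00% of all genes higher and 5.50% lower, and the median was 0.03. Ern1, Atf6 and Sel1l did go with Asns and Trib3 over all cells. They were at -0.30, -0.19 and -0.19 in WT+ISO over WT and at 0.45, 0.245 and 0.16 in β2AR-/-+ISO over WT+ISO. At fixed weights their intervals held 0, except for Ern1 in β2AR-/-+ISO over WT+ISO (0.245, 0.08 to 0.41).

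Of 21 other one-carbon genes, 17 were counted in WT+ISO over WT and none was past 1.5-fold, against 1.00% of all genes higher and 5.50% lower. In β2AR-/-+ISO over WT+ISO 7 of 17 were lower, against 6.83% of all genes, and none higher, and at fixed weights 3 were lower, against 4.00%, namely Shmt1, Gcsh and Fpgs. Shmt1, the cytosolic counterpart of Shmt2, was at a log2 ratio of -0.94 over all cells and -0.59 at fixed weights. Mthfd1l, which continues the mitochondrial route after Mthfd2, was at 0.33 and 0.28. Other mitochondrial genes of the list went both ways. Sfxn1 was at 102.5 CPM in WT+ISO and 67 in β2AR-/-+ISO, Mtfmt at 11.3 and 6.77 and Gcsh at 29.4 and 20.3. Slc25a32 was at 6.29 and 5.99 and Mthfd2l at 8.23 and 9.40, both with overlapping intervals. Aldh1l2, too low to be counted there, was at 0.238 and 2.48 CPM, on 7 and 48 UMIs. In β2AR-/- over WT without ISO Aldh1l2 was the 1 gene of 18 counted that was higher by 1.5-fold, against 2.88% of all genes. None was lower, against 1.52%. All 12 proliferation genes were above 0 in WT+ISO over WT (median 0.18) and below 0 in β2AR-/-+ISO over WT+ISO (median -0.54), and at fixed weights the medians were 0.05 and -0.12. Over all cells this is the same direction as Phgdh in both comparisons. At fixed weights Phgdh was at -0.03 and 0.04, on the other side of 0 from these medians, with intervals that held 0. The part of proliferation in the Phgdh values was not tested.

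Lists of Nrf2 targets and of cAMP-response genes are given for comparison. All 10 Nrf2 target genes were above 0 in WT+ISO over WT (median 0.38), with Nqo1, Gclm and Hmox1 past 1.5-fold, against 1.00% of all genes higher. All 10 were also above 0 in β2AR-/-+ISO over β2AR-/- (median 0.25), with Hmox1 past 1.5-fold, against 0.587%. Of 10 cAMP-response genes 5 were lower by at least 1.5-fold in WT+ISO over WT, against 5.50% of all genes, among them Pde4b at a log2 ratio of -0.87, Dusp1 at -0.78 and Fos at -0.63. At fixed weights 2 were lower, Pde4b and Dusp1, against 2.59%. In β2AR-/-+ISO over β2AR-/- none was past 1.5-fold over all cells, against 0.587% of all genes higher and 0.997% lower. Sik1 was higher at fixed weights (1.58-fold), against 1.02% of all genes.

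**Figure D5:**
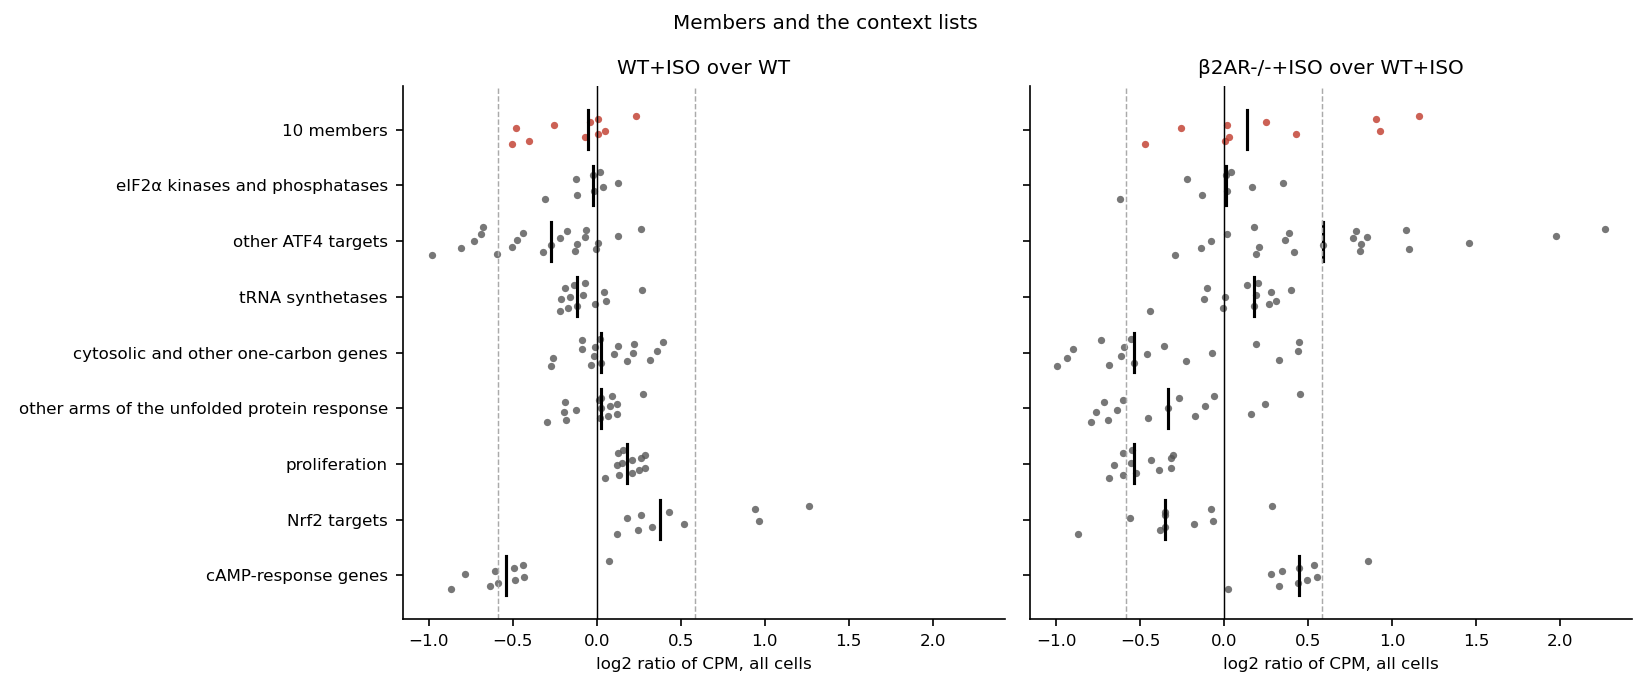
Log2 ratios of CPM over all cells for the 10 members (red) and for the genes of 8 context lists with at least 100 UMIs (grey), in WT+ISO over WT and in β2AR-/-+ISO over WT+ISO. Black bars are list medians, dashed lines mark 1.5-fold, and the height of points within a row carries no value. Other ATF4 targets lie mainly left of 0 in WT+ISO over WT and right of 0 in β2AR-/-+ISO over WT+ISO, and both ratios use the WT+ISO library.

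The genes whose levels were most like each member were sought over the 24 points of cluster and library with at least 50 cells, among 9238 genes. These points share libraries and cluster definitions, and the correlations are a description. Phgdh was most like Ube2s (r = 0.985), Smc4 (0.984) and Sapcd2 (0.981), and Psat1 most like Top2a (0.978), Ect2 (0.978) and Cenpi (0.977). Ube2s, Smc4, Top2a and Ect2 act in mitosis or chromosome structure. Psph was most like Hist1h1e (0.977), Med21 (0.975) and Aurka (0.964). Shmt2 was most like the tRNA synthetase genes Gars (0.986), Vars (0.985) and Lars (0.985), and Atf4 most like Shmt2 (0.985), Lars (0.978) and Gars (0.977). Mthfd2 was nearest to Efcab11 (0.987), Ccdc18 (0.985) and Lars (0.982). Asns was most like Pck2 (0.973), the mitochondrial phosphoenolpyruvate carboxykinase and itself on the list of ATF4 targets, followed by Hist1h2ae (0.940) and Mthfd2 (0.938). Trib3 and Ddit3 had no neighbour as close, with Gm43305 (0.744), Stc2 (0.743) and Slc7a5 (0.735) for Trib3 and Tctex1d2 (0.854), Ankra2 (0.805) and Atf7ip (0.785) for Ddit3. Chac1 had too few UMIs for this search.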

How the data were processed

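Per the file headers, the authors made UMI counts per gene and cell with Cell Ranger 7.0.0, while the submitters' processing notes give Cell Ranger 6.0.0, Seurat and build mm10. The deposited counts are not normalized and were used as deposited. The filter on cells required 200 genes or more and allowed up to 10% of UMIs from mitochondrial genes. UMIs of all kept cells of a library were summed and divided by the library total (CPM), with exact Poisson intervals for levels and exact binomial intervals for ratios. Clusters were made with scanpy 1.11.5 (2000 variable genes, 30 components, 15 neighbours, Leiden resolution 0.4), without the members and context genes. The ratio step was run on simulated counts drawn with counting error alone. That run says nothing of the spread between cells or cultures. All 10 members were named in every comparison, as were up to 4 genes per context list with the largest ratio for ISO in WT, and the 3 genes most like each member with at least 1000 UMIs; other genes named were chosen after their values were seen. Members and lists were chosen with earlier results of these data known. Gene positions and promoters are from RefSeq (GRCm38.p6). Alternatives covered cell filters, scaling, weighting and clustering. Sample tags were counted per library and entered no level or ratio. Some genes are not reported here.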

Additional observations from a re-analysis of the deposited data

Results flagged for a closer look

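Phgdh went in opposite directions with ISO in the 2 genotypes, with a log2 ratio of 0.24 in WT+ISO over WT and -0.14 in β2AR-/-+ISO over β2AR-/- as labelled, each with an interval clear of 0. The difference between the genotypes was not tested, since each arm had 1 library. At fixed cluster weights the 2 values were -0.03 and -0.13, on the same side of 0.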

How the results depend on the processing

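The limits are 1 library per group, intervals that cover counting error only, genotype labels for which no check is given, and low counts for Chac1, Trib3 and Ddit3. Of 99 alternative counts of members, 93 equalled the main count or stayed within 1.5 times it. Most were counts of members past 1.5-fold, and a few were of members highest in the clusters with most Matn2 or Mpo. Most main counts were 0, so that most agreements were of 0 with 0. The alternative limited to members with at least 100 UMIs left no member out and could not change a count. In β2AR-/- over WT without ISO the number of members higher was 2 with no filter on cells, with the stricter filter and with median-of-ratios size factors, since Trib3 crossed the threshold. In β2AR-/-+ISO over WT+ISO 1 member was lower without the 2% of cells with the most UMIs, namely Phgdh at a log2 ratio of -0.61. With fixed weights set by UMIs in place of cells, an alternative chosen after seeing the data, 1 member was lower in WT+ISO over WT and 2 were higher in β2AR-/- over WT. Of 280 alternative values for single members 40 moved beyond the main interval, and 31 in 16 results had another sign than the main value. The largest such turns were Ddit3 in β2AR-/-+ISO over WT+ISO, from 0.25 to -0.39 when every cell weighed the same, and Psph in the same comparison, from -0.26 to 0.31 at fixed weights. Asns and Trib3 kept their sign in WT+ISO over WT, β2AR-/- over WT and β2AR-/-+ISO over WT+ISO under all alternatives run for single members. Other clusterings and weights by UMIs gave counts of members alone, so no sign was read from them. No barcode was shared between libraries, so leaving shared barcodes out could not be run as an alternative. No paired analysis was possible because there was 1 library in each group.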
